A study of Drosophila melanogaster with 6 samples.

Results

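A set of 10 genes of the actin and myosin machinery that joins, braces and empties the nurse cells of the fly egg chamber was followed in ovaries with a mutation in the actin importer gene Ipo9: kel, hts, cher, qua, sn, dia, sqh, zip, capu and spir. They were picked by symbol and role out of the 17559 genes in each count table. The rule used no measured value, but the set was proposed with earlier results of these data known. Polyadenylated RNA from dissected ovaries of Drosophila melanogaster kept at 25 °C was sequenced in 6 libraries. The 3 mutant libraries came from females of genotype RanBP9D1/BSC469 and the 3 control libraries from w1118/BSC469, so both groups carried BSC469. RanBP9 was the earlier symbol of Ipo9, the gene of Importin-9, which brings actin into the nucleus, and the series asks what less nuclear actin does to transcription. The labels give neither the molecular nature of D1, nor the age of the females, nor whether the replicates came from separate crosses, so p-values measure the spread between these libraries, which may be technical.

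In the Drosophila ovary, a germline cyst divides without complete cytokinesis, and its sister cells stay joined by ring canals, openings lined with actin filaments through which the nurse cells feed the oocyte. Late in oogenesis, the nurse cells build cables of bundled actin. The nurse cells also contract by means of non-muscle myosin II, which pushes their cytoplasm into the oocyte. A loose actin mesh built by the nucleators Capu and Spir fills the oocyte until that time. All of these processes draw on cytoplasmic actin, and their genes are also used outside the germline, in follicle cells and muscle.

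Mutant ovaries had slightly lower mRNA levels of dia, sqh and kel, and the other 7 genes did not pass the test. The fitted level of dia fell by 14.2%, that of sqh fell by 12.9% and that of kel fell by 9.38%. Each had an adjusted p under 0.05 in the quasi-likelihood test of edgeR, adjusted over all 8110 genes tested by the Benjamini-Hochberg method. No member was called higher, by edgeR, DESeq2 or limma-voom, or at an unadjusted p under 0.05. Over all genes tested, 14.5% were called in either direction, 8.31% higher and 6.20% lower, beside 3 of these 10. DESeq2 called 15.4% of all genes and 2 of the 10, and 29.1% of all genes and 3 of the 10 had an unadjusted p under 0.05 in edgeR. With 10 genes chosen when earlier results of these data were known, that difference in share was given no test. Each of the 3 calls ended when some single library was left out, and in 2 of the 6 such fits, without mutant replicate 1 or control replicate 1, none of the 10 genes passed, with an unadjusted p under 0.05 for 4 and 3 of them, respectively.

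Each library held 21583524 to 26483578 counted reads, and the members had between 1071 and 10722 of them in a library. Ipo9 itself was at 98.3, 91.1 and 92.0 CPM (counts scaled by library size, with a correction for composition) in the mutant libraries, and at 118, 155 and 116 CPM in those of the controls (replicates 1 to 3 in order, here and throughout). Its groups did not overlap, and its log2 fold change, mutant over control, was -0.47 (SE 0.12), with an edgeR adjusted p of 0.0544, short of the threshold of 0.05. The germline markers vas, osk, grk, orb, BicD, aub, bam and otu were all detected in every library, with summed levels of 3846 to 4087 CPM in the control and 3867 to 4061 CPM in the mutant libraries. The 8 muscle sheath markers summed to 83.1, 142 and 138 CPM in the control libraries and to 165, 147 and 89.5 CPM in the mutant libraries. The 8 follicle cell markers summed to 6892 to 7536 CPM in the controls and to 5977 to 7709 CPM in the mutants, with mutant replicate 3 the lowest of all. Most of each of these sums came from Yp1 and Yp2. Of the 8 germline markers, edgeR called 2 higher (grk and aub) and 2 lower (vas and bam), with a list median log2 fold change of -0.02. Over all genes tested, edgeR called 8.31% higher and 6.20% lower. Fat body and neuron markers were low, at sums of 11.6 to 41.6 and 2.56 to 4.89 CPM. The 6 hemocyte markers summed to 88.8 to 123 CPM, most of it from srp, while Hml, NimC1 and eater were each under 1 CPM on average in both groups.

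**Figure D1:**
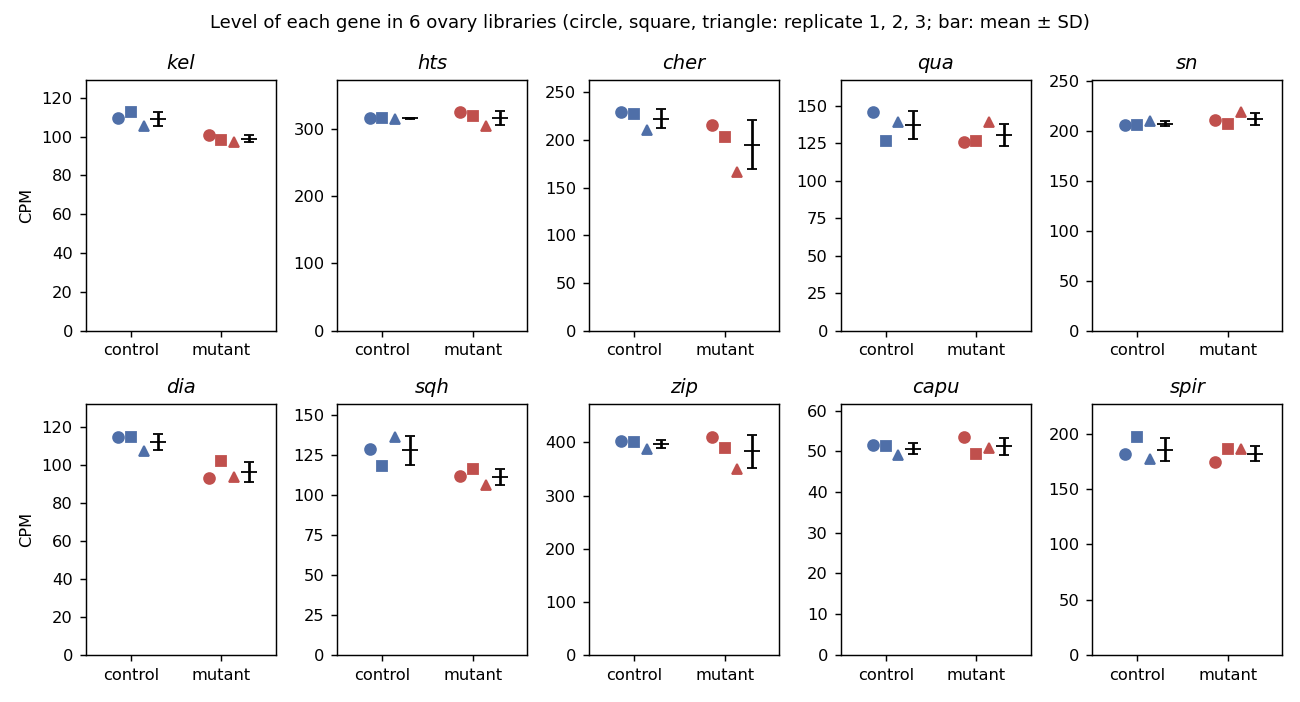
Level of each of the 10 genes in CPM (scaled counts, y axis from 0) in the control and mutant libraries. Symbols are single libraries and black bars are the mean ± SD of 3. The groups are separate for kel, dia and sqh and overlap for the other 7 genes.

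Ring canals are lined by products of kel, hts and cher. kel (FBgn0001301) encodes Kelch, which organises ring canal actin and serves as a substrate adaptor of the ubiquitin ligase built on Cullin-3. It was at 101, 98.2 and 97.5 CPM in the mutant and at 109.6, 112 and 105 CPM in the control libraries. Every mutant library thus lay below every control library, though the lowest control and the highest mutant library were close. The fitted log2 fold change of kel was -0.14 (SE 0.04, 95% interval -0.23 to -0.05), with an edgeR adjusted p of 0.0468. That call was the nearest of the 3 to the threshold and was lost in 11 of 14 other settings, at an adjusted p of 0.0504 with limma-voom, 0.0570 with DESeq2 and up to 0.146 when 1 library was left out.

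hts (FBgn0263391) encodes adducin-like proteins, one of which is cut to give a ring canal component, and other forms of which belong to the fusome and the membrane skeleton. It was at 324, 319 and 304 CPM in the mutant and at 316, 316 and 314 CPM in the control libraries. The controls lay inside the range of the mutants, and the mutant SD of 10.5 CPM was wider than the control SD of 1.17. Fitted over all libraries, hts had a log2 fold change of 6.0e-04 (SE 0.04, 95% interval -0.09 to 0.09, edgeR adjusted p = 0.994). The counts sum all 16 annotated transcripts of hts, so the ring canal form was not measured on its own.

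cher (FBgn0014141) encodes filamin, the actin cross-linker that Kelch and the ring canal form of Hts need to reach the canal. It was at 215, 203 and 167 CPM in the mutant and at 229, 227 and 211 CPM in the control libraries. Mutant replicate 3 lay well below the other 5 libraries, and mutant replicate 1 lay inside the control range. The log2 fold change of cher was -0.19 (SE 0.09, 95% interval -0.41 to 0.03), with an edgeR adjusted p of 0.241. Its point estimate is larger in size than that of kel, with the largest SE of the 10. Mutant replicate 3 was also the mutant library with the lowest muscle and follicle cell marker levels. Its list medians were -0.32 and -0.29 in log2 CPM relative to the control mean. The germline list median was at -0.06 there, also the lowest of that list in any library. Control replicate 1 had a muscle list median of -0.51 and yet the highest level of cher, and the part of either cell type in the level of cher was not tested. In bulk RNA, fewer cells of a type and less RNA per cell cannot be told apart. Without mutant replicate 3 the log2 fold change of cher was -0.09 (adjusted p = 0.282). cher is the one member on chromosome arm 3R, 5.68 Mb beyond the end of Ipo9.

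qua and sn encode the proteins that bundle nurse cell actin into cables. qua (FBgn0003187) encodes Quail, a villin-like bundler, and was at 126, 127 and 139 CPM in the mutant and at 146, 127 and 139 CPM in the control libraries. Control replicate 1 stood highest, and the groups overlapped. For qua, the fitted log2 fold change was -0.07 (SE 0.06, 95% interval -0.20 to 0.06), with an edgeR adjusted p of 0.469. It ranged from -0.03 without control replicate 1 to -0.13 without control replicate 2, and passed the threshold in neither fit. sn (FBgn0003447) encodes the fly fascin Singed, and was at 212, 207 and 219 CPM in the mutant and at 206, 206 and 210.2 CPM in the control libraries. These 6 values spanned a narrow range and the groups overlapped. Its log2 fold change was 0.03 (SE 0.04, 95% interval -0.05 to 0.12), with an edgeR adjusted p of 0.611.

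sqh and zip encode subunits of non-muscle myosin II, the motor that contracts the nurse cells and narrows ring canals. sqh (FBgn0003514), the regulatory light chain gene, was at 112, 116 and 106 CPM in the mutant and at 129, 118 and 136 CPM in the control libraries. The groups did not overlap, but mutant replicate 2 and control replicate 2 nearly met. The log2 fold change of sqh was -0.20 (SE 0.06, 95% interval -0.33 to -0.07), with an edgeR adjusted p of 0.0437. The call was lost without control replicate 1 (adjusted p = 0.132), control replicate 3 (0.131) or any of the mutant replicates (0.0506 to 0.108), and held without control replicate 2 (0.0250).

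zip (FBgn0265434 in the count tables), the heavy chain gene, was at 410.5, 388 and 349.5 CPM in the mutant and at 403, 400.0 and 388 CPM in the control libraries. The mutants spread on both sides of the controls, and mutant replicate 3 was lowest, as it was for cher. That library was also the lowest of all for hts, kel and sqh, but not for dia, qua, sn, capu or spir. Without it, the log2 fold change of sqh was -0.165 (edgeR adjusted p = 0.0824). The log2 fold change of zip was -0.05 (SE 0.06, 95% interval -0.18 to 0.07), with an edgeR adjusted p of 0.584. Without mutant replicate 3 it was 0.01. The fall of sqh next to the absence of a call for zip did not show that the subunits differed. The ratio of zip to sqh, each per kb of exon, was 0.801, 0.727 and 0.717 in the mutant and 0.682, 0.735 and 0.620 in the control libraries, and the groups overlapped (exact permutation test, two-sided, p = 0.3, adjusted p = 0.375 over 5 ratios). The smallest p this test can give here is 0.1, so it could not have passed 0.05 and does not decide whether the subunits differed.

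**Figure D2:**
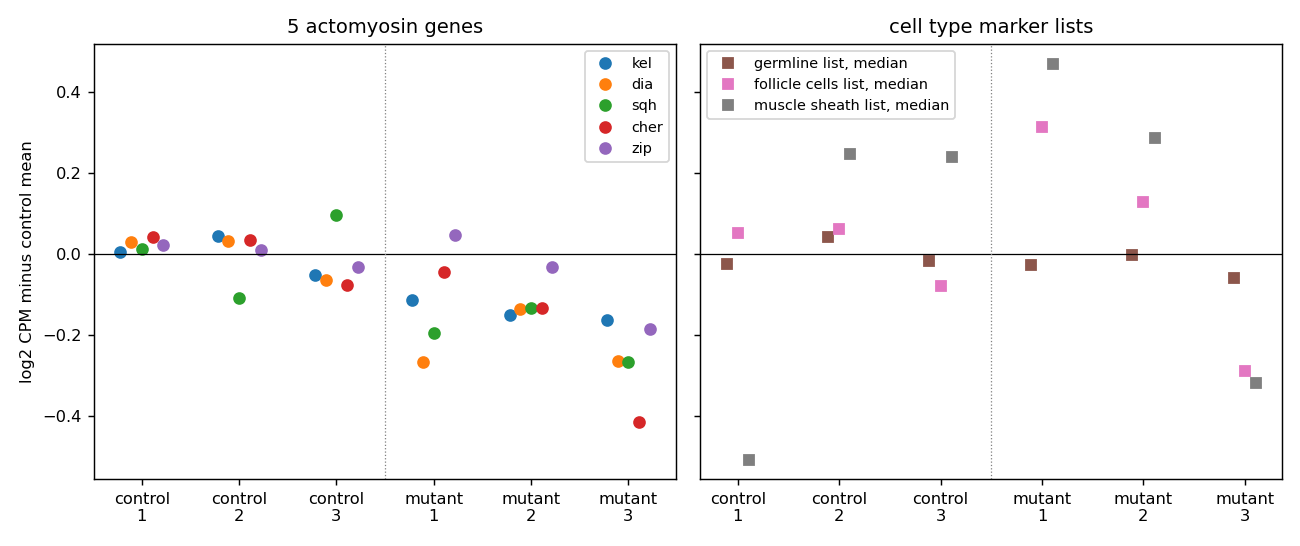
Level in each library as log2 CPM minus the control mean, for kel, dia, sqh, cher and zip (left) and as the median of the germline, follicle cell and muscle sheath marker lists (right). Points are single libraries. In mutant replicate 3, cher (-0.41), sqh (-0.27), dia (-0.26), zip (-0.18) and kel (-0.16) were low. The follicle cell and muscle medians were also low there, and the germline median was at -0.06, its lowest in any library.

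dia, capu and spir encode proteins that start or lengthen actin filaments. dia (FBgn0011202) encodes the formin Diaphanous, which acts in cytokinesis and at the cell cortex, and was at 93.2, 102 and 93.5 CPM in the mutant and at 114, 115 and 107 CPM in the control libraries. All mutant libraries lay below all controls, with mutant replicate 2 the nearest to them. The log2 fold change of dia was -0.22 (SE 0.05, 95% interval -0.33 to -0.11), the largest in size of the 10, with an edgeR adjusted p of 0.0160. It was also the call that was kept most often, in 11 of 14 other settings. The exceptions were the fits without mutant replicate 1 (0.0630), control replicate 1 (0.0732) and control replicate 2 (0.0606).

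capu (FBgn0000256) encodes the formin Cappuccino, and was at 53.6, 49.3 and 50.8 CPM in the mutant and at 51.6, 51.2 and 49.0 CPM in the control libraries. Its log2 fold change was 0.02 (SE 0.05, 95% interval -0.10 to 0.13), with an edgeR adjusted p of 0.860. spir (FBgn0003475) encodes Spire, the nucleator that works with Cappuccino on the oocyte mesh, and was at 174, 186 and 186 CPM in the mutant and at 182, 197 and 177 CPM in the control libraries. Its log2 fold change was -0.03 (SE 0.05, 95% interval -0.14 to 0.09), with an edgeR adjusted p of 0.780. The mutant and control libraries of both genes were thus mixed.

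The level of dia relative to capu was 1.62, 1.93 and 1.71 in the mutant and 2.06, 2.08 and 2.03 in the control libraries, each gene per kb of exon. These groups did not overlap, and the exact permutation p of 0.1, two-sided, is the smallest that 3 against 3 libraries can give (adjusted p = 0.25 over 5 ratios). The same p was found for kel relative to hts, at 0.655, 0.649 and 0.675 in the mutant and 0.730, 0.749 and 0.705 in the control libraries. The ratios of capu to spir (exact permutation p = 0.7) and of qua to sn (exact permutation p = 0.2) overlapped between the groups, at means of 0.294 and 0.285 for the former and 0.568 and 0.611 for the latter, mutant and control. The pairs were set by role, with the counts already known.

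**Figure D3:**
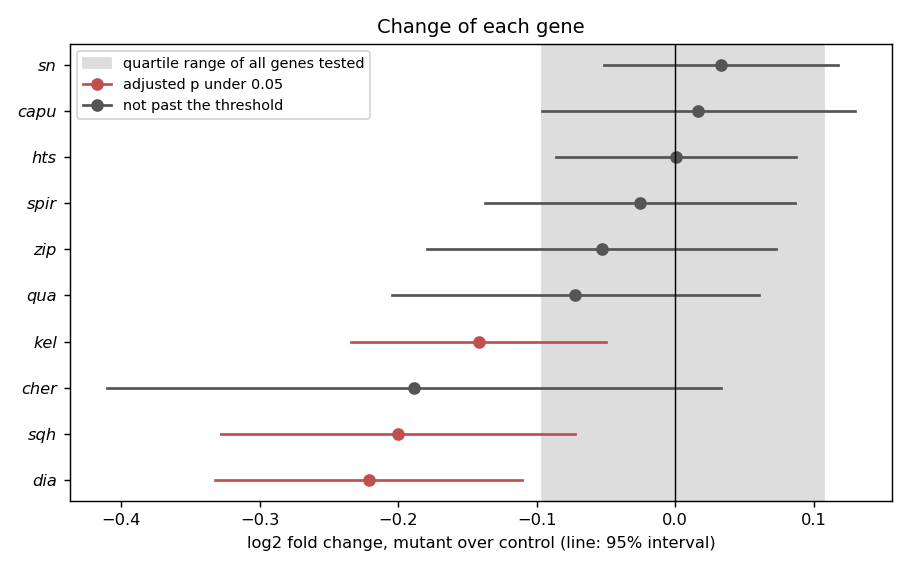
Fitted log2 fold change, mutant over control, of the 10 genes, with 95% intervals; the grey band runs from the lower to the upper quartile of all 8110 genes tested, -0.10 to 0.11. The points of dia, sqh, cher and kel lie below the band, and cher has the widest interval.

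All 10 genes passed the filter on low counts. Their log2 fold changes ran from -0.22 to 0.03, with a median of -0.06, beside a median of -3.3e-03 over all genes tested. Of the 10, 7 had a negative value, against 50.8% of all genes tested. Groups did not overlap in 3 of the 10, those of dia, sqh and kel, against 34.9% of all genes tested. The median absolute log2 fold change was 0.06, smaller than the 0.10 over all genes tested, which include genes with far fewer counts. Library by library, the median of the 10 genes relative to the control mean was -0.07, -0.08 and -0.11 in the mutant and 0.02, 0.01 and -0.04 in the control libraries.

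Levels were compared between genes per kb of merged exon, since long mRNAs give more reads. Merged exons take in every annotated transcript, whether or not the ovary expresses it, so the order and ranks depend on the annotation. The length used for hts, for instance, was 11.5 kb over 16 annotated transcripts. In control ovaries the order from high to low was sqh, sn, zip, qua, spir, hts, cher, kel, dia and capu, and the order by mutant mean was the same. sqh stood at 81.1 ± 5.73 CPM per kb in control and 70.6 ± 3.25 CPM per kb in mutant ovaries (mean ± SD, n = 3 each). capu, at the low end, stood at 8.11 ± 0.220 CPM per kb in control and 8.20 ± 0.351 CPM per kb in mutant ovaries. The bundler gene sn was at 59.2 ± 0.655 and zip at 54.8 ± 1.08 CPM per kb in control ovaries. Of neighbours in this order, spir (28.5 ± 1.62) and hts (27.4 ± 0.101 CPM per kb) overlapped across the control libraries, and the other neighbours did not. By this measure in control ovaries, sqh ranked 921st of 7845 protein-coding genes tested and capu 5905th.

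**Figure D4:**
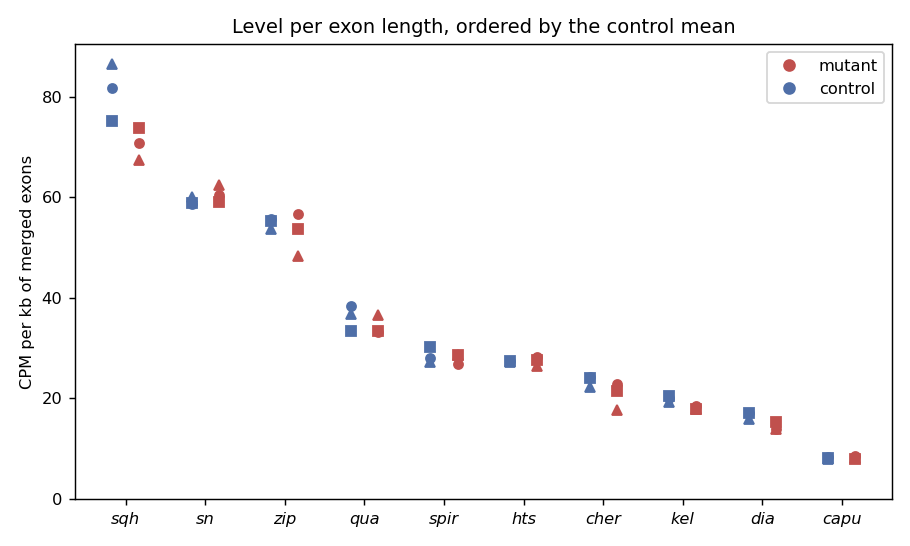
Level per kb of merged exon (CPM per kb, y axis from 0) of the 10 genes in single control (blue) and mutant (red) libraries, ordered by the control mean, with circles, squares and triangles for replicates 1, 2 and 3. sqh is highest, at 81.1 CPM per kb in control, and capu lowest, at 8.11.

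The spread between replicates also differed among the members. In control libraries, the coefficient of variation was 0.370% for hts, 1.11% for sn and 1.97% for zip, and was 7.04% for qua and 7.06% for sqh. In mutant libraries, it was 13.0% for cher and 8.07% for zip, and 1.84% for kel. The fold change of kel passed the test with that narrow spread, while the larger one of cher did not pass.

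The 10 genes are spread over 4 chromosome arms of the BDGP6 (dm6) build, with 5 on 2L, 2 on 2R, 2 on X and 1 on 3R, and all are annotated as protein-coding. kel lies at 18129884 to 18138083, qua at 17486806 to 17497208 and dia at 20758144 to 20768053 on 2L, spir at 20311219 to 20348386 and capu at 3872646 to 3902860 on the same arm. sqh lies at 6223061 to 6225140 and sn at 7964024 to 7986601 on X, cher at 17091533 to 17125389 on 3R, and hts at 19397032 to 19424903 and zip at 24990570 to 25011965 on 2R. No exon of a member overlaps another gene on the same strand. On the opposite strand, cher shares 406 bp of exon with cal1 (4.31% of the exon length of cher) and sn shares 119 bp with sws (3.39%), and the strand setting of the counting is not given in the sources used here, so reads there cannot be assigned with certainty. The antisense RNA genes opposite hts and qua had 0 to 6 and 8 to 16 counts per library.

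Other genes of the same structures were read from lists. Over all genes tested, edgeR called 8.31% higher and 6.20% lower, for comparison with the counts below. Of 10 further ring canal and fusome genes, edgeR called 0 higher and 1 lower and 9 did not pass, with a median log2 fold change of -0.05. The lower one was alpha-Spec (FBgn0250789), which encodes the spectrin that accompanies Hts in the fusome and the membrane skeleton. It was at 211, 203 and 185 CPM in the mutant and at 231, 240.2 and 237 CPM in the control libraries, and its log2 fold change of -0.24 (SE 0.05) had an edgeR adjusted p of 0.0123. Its call held in 13 of 14 other settings and ended when both replicates numbered 2 were left out (adjusted p = 0.0817). Mutant replicate 3 was the lowest library, and without it the log2 fold change of alpha-Spec was -0.19 (edgeR adjusted p = 0.0142). alpha-Spec shares 1.56% of its exon length with dlt on the same strand, where reads cannot be assigned. Src64B and Btk, kinases of ring canal growth, and Cul3, the cullin partner of Kelch, had log2 fold changes of -0.07, -0.01 and -0.07, with adjusted p of 0.299, 0.869 and 0.32.

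By edgeR, 6.20% of all genes tested were called lower, and by DESeq2 15.4% were called in either direction. Of 19 genes for actin-binding and nucleation partners, edgeR called 0 higher and 1 lower and 18 did not pass. The list had a median log2 fold change of -0.04. DESeq2 called 2, Zyx and the tropomyosin gene Tm1, whose log2 fold change was -0.13 with DESeq2 (adjusted p = 0.0267) and -0.12 with edgeR (adjusted p = 0.0760). Zyx (FBgn0011642), which encodes zyxin, a protein of actin-based junctions, was at 54.1, 50.1 and 54.5 CPM in the mutant and at 67.0, 71.3 and 70.6 CPM in the control libraries. Its log2 fold change was -0.40 (SE 0.05, edgeR adjusted p = 9.5e-04), larger in size than that of any of the 10 genes, and its call held in all 14 other settings. Zyx shares 96 bp of exon with apolpp on the opposite strand, which itself was at -0.92 on that scale (SE 0.37) and did not pass, with an adjusted p of 0.185. The profilin gene chic and the cofilin gene tsr, whose products work with the formins and with filament turnover, had log2 fold changes of -0.03 and -0.04, with adjusted p of 0.698 and 0.652.

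By edgeR, 14.5% of all genes tested were called and 29.1% had an unadjusted p under 0.05. Of 11 regulators of myosin II, none was called by edgeR, DESeq2 or limma-voom, and 2 had an unadjusted p under 0.05. These were Rho1 (-0.11, SE 0.05, adjusted p = 0.155), the GTPase that switches on Diaphanous and the kinase of the light chain, and pbl (-0.12, SE 0.05, adjusted p = 0.166), the exchange factor for Rho1 in cytokinesis. The median log2 fold change of the list was -0.05. Rok, the kinase of the light chain, and Mbs and flw, subunits of the opposing phosphatase, had log2 fold changes of 0.02, -4.9e-03 and -0.05, with adjusted p of 0.766, 0.949 and 0.631. Of the 6 actin genes, 4 had enough counts to test, and none was called by edgeR, DESeq2 or limma-voom or had an unadjusted p under 0.05, with Act5C, the main cytoplasmic actin, at -0.09 (SE 0.05) and Act87E at 0.36 (SE 0.30), with adjusted p of 0.282 and 0.482. These lists, like the 10 genes, were chosen with earlier results of these data known.

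Genes whose levels over the 6 libraries ran most like those of the called members were named as a description. Of 6368 other genes whose mean reached 10 CPM, Lrrk, Amph and CG8176 had the highest Pearson correlations with kel, at 0.996, 0.995 and 0.994 on log2 CPM. For dia these were Madm (0.990), CG9302 (0.988) and Liprin-alpha (0.975), and for sqh they were Pa1 (0.992), loj (0.986) and tyn (0.983). The 6 points share their 2 groups and their libraries, and 258 genes had a correlation over 0.9 with kel, 136 with dia and 104 with sqh. By edgeR, Lrrk, Amph and CG8176 had log2 fold changes of -0.26, -0.15 and -0.15, with adjusted p of 0.0155, 0.0347 and 0.0317. Madm, CG9302 and Liprin-alpha were at -0.12, -0.09 and -0.15, with adjusted p of 0.0940, 0.156 and 0.0436, so the first pair did not pass. Pa1, loj and tyn were at -0.16, -0.25 and -0.50, with adjusted p of 0.0869, 0.0434 and 0.0219, so Pa1 did not pass.

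**Figure D5:**
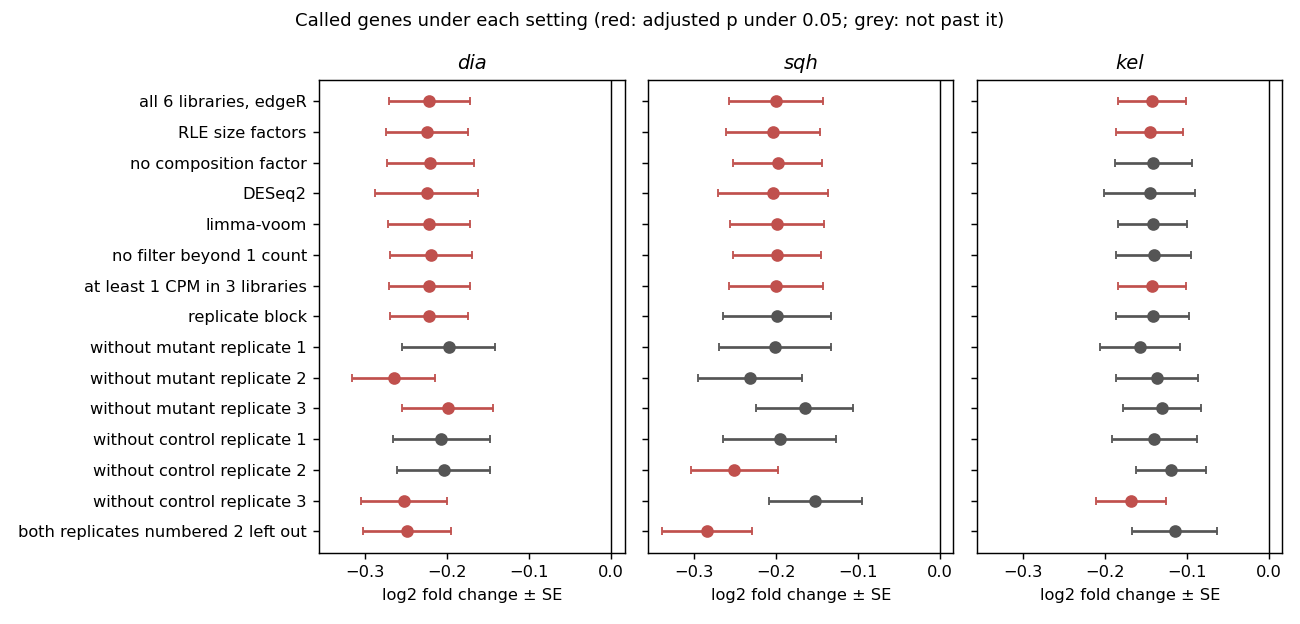
Log2 fold change ± SE of dia, sqh and kel with all 6 libraries and under 14 other settings, in red where the adjusted p was under 0.05. All values are below 0, between -0.28 and -0.11, and dia was past the threshold in 11, sqh in 8 and kel in 3 of the 14.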

How the data were processed

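The authors deposited 1 table per library with raw read counts per gene, whole numbers that were not scaled. TopHat2, HTSeq and DESeq2 are named in the submitters' processing notes with the builds dm6 and BDGP6, while no version, role or strand setting is given in the sources used here. Libraries were made with a directional kit after selection of poly(A) RNA, per the labels' protocols. Symbols came from an Ensembl annotation of BDGP6 by gene ID, or by position where the ID differs, requiring 90% overlap in both directions (216 genes, among them zip and the markers vas, br, wupA and Nplp2).

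Counts were fitted with edgeR 4.0.16 in R 4.3.3 (filterByExpr with a minimum count of 10, 8110 genes kept of 17559, TMM factors of 0.986 to 1.01, robust quasi-likelihood test of mutant against control, Benjamini-Hochberg adjustment, threshold 0.05). CPM used the TMM factors, and exon length was that of merged exons. Simulated counts were used to test the fit. The 10 genes and the lists were chosen with earlier results of these data known. The genes named were the 10 members, Ipo9, the called genes of each list (or those with the smallest p) and the 3 genes most like each called member; further list genes were named for their role. Replicates of a group differed by more than counting noise (chi-square per degree of freedom 6.19 to 16.0).

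The other settings tried were DESeq2 1.42.0, limma-voom (limma 3.58.1), scaling by library totals alone or by relative log expression, 2 other low-count filters, a replicate block, each library left out, and both replicates numbered 2 left out. Applying them to Ipo9, alpha-Spec and Zyx was chosen after the data were seen.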

Additional observations from a re-analysis of the deposited data

How the results depend on the processing

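Over the 10 genes and 14 alternatives, 108 of 140 fits kept direction and side of the threshold, 20 lost a call and 12 changed sign, and the 7 genes that did not pass in the full fit passed in none of 98 fits (smallest adjusted p 0.066, edgeR or the tool named). Of the 3 called genes, the log2 fold change stayed negative throughout, at -0.27 to -0.20 for dia, -0.28 to -0.15 for sqh and -0.17 to -0.11 for kel. The sign changed for values near 0. hts was at -2.8e-03 with relative log expression factors, -2.7e-03 with DESeq2 and -4.0e-03 without both replicates numbered 2, where spir was at 5.5e-03. With 1 library left out, hts ran from -0.0191 to 0.0289, capu from -0.0174 to 0.0440, spir from -0.0582 to 0.0218 and zip from -0.11 to 0.0102. Without a change of sign, qua ran from -0.13 to -0.03, sn from 0.01 to 0.05 and cher from -0.27 to -0.09. The number of the 10 genes called was 3 in the full fit and 0 to 2 with 1 library left out, and the number of all genes called, 1177 in the full fit, was then 566 to 1475. Without both replicates numbered 2 it was 516, with 47.1% of the calls higher instead of 57.3%, and 2 of the 10 genes were called. The cause was not tested. With the replicate number as a replicate block, 728 genes and 1 of the 10, dia, were called. The labels do not say whether equal numbers mark a pair. Same-numbered mutant and control libraries deviated with correlations of -0.23, -0.26 and -0.12, and no library pair of the same number correlated best. Such correlations over many genes cannot settle pairing for a single gene, and a shared batch was not tested. For cher, the block gave an SE of 0.05 instead of 0.09, with an edgeR adjusted p of 0.066. Ipo9 passed with DESeq2 and in both fits that lacked control replicate 2 (adjusted p 7.0e-05 to 0.0172) and in none of the other 11 alternatives.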
